A study of Mus musculus with 2 samples.

Results

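The 10 genes described here are the TGF-beta ligands *Tgfb1*, *Tgfb2* and *Tgfb3*, the latency genes *Ltbp1* and *Ltbp2*, the receptors *Tgfbr1*, *Tgfbr2* and *Tgfbr3*, the signal transducer *Smad3* and the repressor *Skil*. They were chosen by symbol from the 33696 genes of each count matrix, and all 10 were found in both matrices. The cells came from the suprarenal abdominal aorta of 5-month-old male C57BL/6J mice with no engineered allele. Control mice received normal saline. AngII+HS mice received angiotensin II at 1500 ng/kg/min from subcutaneous minipumps for 28 days and drank water with 0.9% NaCl and 0.2% KCl, a treatment that gives abdominal aortic aneurysm (AAA) in a part of the animals. Droplet single-cell RNA sequencing (scRNA-seq) gave 1 library per condition. Per the labels, aortas of 5 mice were pooled for each library in the design text, whereas the protocol text names 1 control mouse and 2 treated mice, so the number of animals behind each library is uncertain.

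With 1 library per condition there was no replicate, no test between the conditions and no p-value. A level is given in CPM, that is the unique molecular identifiers (UMIs) of a gene summed over the cells of a type and scaled to the same total of UMIs in every cell type and library. Ratios are AngII+HS over Control on the log2 scale, and all intervals are exact 95% intervals that cover counting error only, not the spread between mice. A gene was called higher or lower in a cell type if the ratio passed 2-fold, with at least 50 UMIs over both libraries and at least 90 cells in each.

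The Control library held 11448 barcodes and 86618995 UMIs, and the AngII+HS library 24804 barcodes and 117146856 UMIs. After filtering, 10269 and 19734 cells were retained, with a median of 7274 and 3065.5 UMIs. Clusters were named from fixed markers, so each name below stands for cells that are like that type. Vascular smooth muscle cells (VSMCs) made up 53.0% of cells in Control and 4.64% in AngII+HS, and fibroblasts 25.5% and 23.9%. Macrophages were 4.75% and 22.9%, neutrophils 0.964% and 23.6%, and vascular endothelial cells (VECs) 8.16% and 6.10%. These shares depend on how well each cell type survived the enzyme digestion, and fewer cells of a type cannot be told apart from lower recovery. The defining markers of each of the 9 cell types compared were detected in both libraries. The deposited barcode lists match in length the matrix of the opposite condition and were left aside, and a swap of the matrices themselves would turn every direction below.

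TGF-beta ligands are secreted as latent complexes, in which the mature ligand stays wrapped by its own propeptide after furin-type proteases have cut the chain at a basic site. The propeptides of TGF-beta1 and TGF-beta3 carry an Arg-Gly-Asp motif that alpha-v integrins grip to release the ligand. LTBP1 binds the propeptide covalently and stores the complex in the extracellular matrix, whereas LTBP2 shares this domain structure but does not bind latent TGF-beta. Active ligand brings together the type II receptor (*Tgfbr2*) and the type I receptor (*Tgfbr1*), and betaglycan (*Tgfbr3*) helps to present TGF-beta2. SMAD3 carries the signal to the nucleus, where SnoN (*Skil*) holds it back. In the aortic wall this pathway is known for its part in matrix production and in inherited aneurysm.

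The coding sequence shows how the ligands differ at the sites that release them. The stretches below were read from the GRCm39 genome with the GENCODE M39 annotation, 5′ to 3′ on the coding strand. Each joins the coding bases of neighbouring exons across an intron, so the coordinates span that intron. Capitals mark the Arg-Gly-Asp codons or the 4 basic-site codons just before the mature ligand. The whole stretches, with the bases around the capitals, lie in exons 4 and 5 of *Tgfb1* and *Tgfb3* for Arg-Gly-Asp. For the cleavage site they lie in exons 5 and 6 of all 3 genes.
*Tgfb1* Arg-Gly-Asp (chr7:25396408-25396605, plus strand): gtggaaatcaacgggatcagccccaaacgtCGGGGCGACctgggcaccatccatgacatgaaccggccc
*Tgfb1* cleavage site (chr7:25396630-25403553, plus strand): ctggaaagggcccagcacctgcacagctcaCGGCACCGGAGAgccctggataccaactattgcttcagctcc
*Tgfb2* cleavage site (chr1:186361230-186362874, minus strand): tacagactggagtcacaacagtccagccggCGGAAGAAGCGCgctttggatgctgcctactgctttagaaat
*Tgfb3* Arg-Gly-Asp (chr12:86108909-86110598, minus strand): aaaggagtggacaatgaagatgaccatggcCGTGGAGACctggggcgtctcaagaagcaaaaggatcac
*Tgfb3* cleavage site (chr12:86105824-86108869, minus strand): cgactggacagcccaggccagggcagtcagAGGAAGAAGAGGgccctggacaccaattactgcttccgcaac
The Arg-Gly-Asp motif starts at codon 244 of the 390 codons of *Tgfb1* and at codon 261 of the 412 codons of *Tgfb3*, and none of the 414 codons of *Tgfb2* starts this motif. Each mature ligand spans 112 codons. Around the cleavage site, 48.6% of the 72 bases were the same in *Tgfb1* and *Tgfb2*, 54.2% in *Tgfb1* and *Tgfb3* and 51.4% in *Tgfb2* and *Tgfb3*. The assay counted transcripts, so neither cleavage nor release was measured.

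The sources of the ligand transcripts among the recovered cells differed between the libraries. In Control, VSMCs held 89.0% of the 20988 *Tgfb2* UMIs and fibroblasts 7.73%. In AngII+HS, VSMCs held 12.6% of the 11384 *Tgfb2* UMIs and fibroblasts 81.0%. VSMCs also held most of the *Tgfb3* UMIs in Control (80.0% of 5196), while fibroblasts held 59.3% and VSMCs 21.3% of the 3396 in AngII+HS. For *Tgfb1*, the share of VSMCs was 52.9% of 6836 UMIs in Control and 3.37% of 11026 in AngII+HS. Macrophages held 11.3% of the *Tgfb1* UMIs in Control and 40.4% in AngII+HS, followed there by fibroblasts (14.4%) and VECs (11.5%). As a measure of the cells themselves, VSMCs gave 72.0% of all UMIs in Control and 8.12% in AngII+HS, macrophages 2.94% and 24.7%, and fibroblasts 13.1% and 34.9%. The *Tgfb1* share of macrophages was above their share of all UMIs in both libraries, whereas the *Tgfb1* share of fibroblasts was below it.

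**Figure D1:**
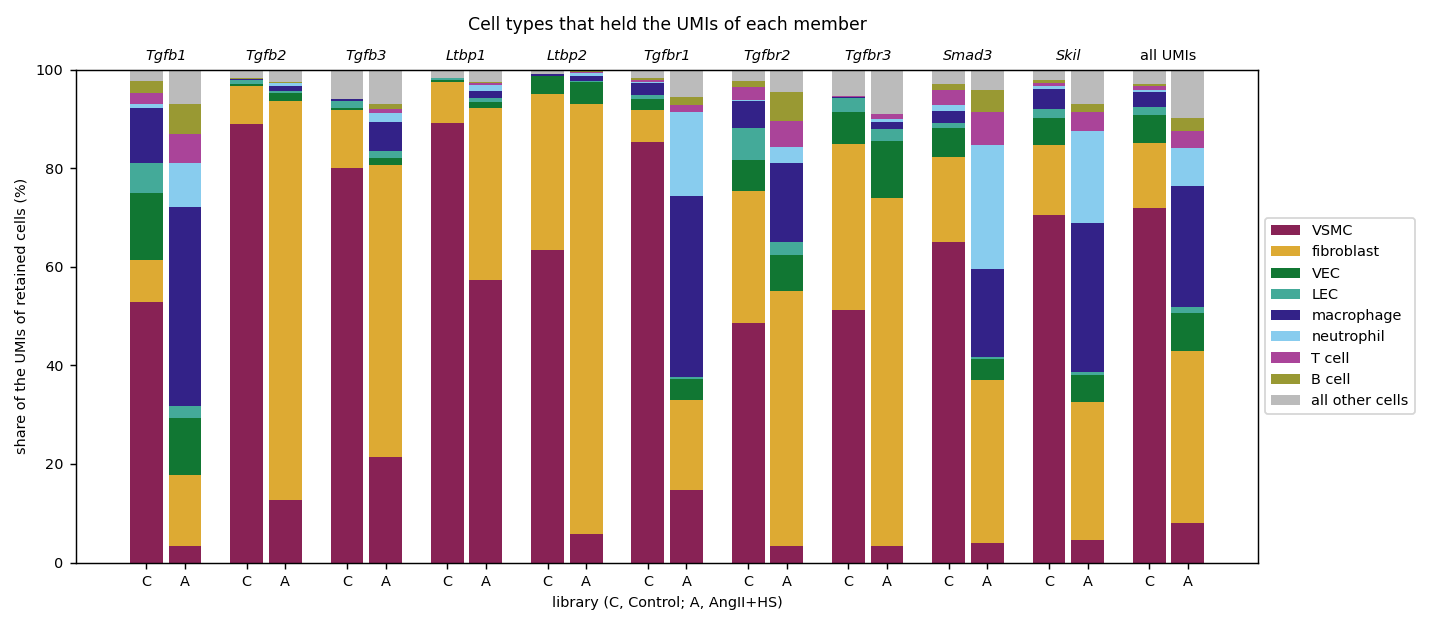
Share of the UMIs of each gene (y axis, %) held by each cell type in the Control (C) and AngII+HS (A) library, beside the share of all UMIs in the last pair of bars. VSMCs hold 89.0% of the *Tgfb2* UMIs in Control, and fibroblasts hold 81.0% in AngII+HS.

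The library totals moved with these shares. Over all retained cells, *Tgfb2* stood at 279 CPM in Control and 141 in AngII+HS, and *Tgfb3* at 69.0 and 42.1. *Tgfb1* stood at 90.8 and 137 CPM. *Ltbp1* had the lowest ratio of the 10 genes over whole libraries (670 and 180 CPM, log2 ratio −1.90) and *Ltbp2* the highest (26.5 and 114 CPM, 2.11). Levels within a cell type, which do not depend on the number of its cells, are given next.

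Of the 80 pairs of a gene and a cell type with enough UMIs and cells, 4 were called higher and 6 lower in AngII+HS. With free RNA subtracted, as estimated from B and T cells, those cell types were themselves left out. Of the 67 pairs that remained, 14 were higher and 24 lower. This setting kept 3 of the 4 higher and 5 of the 6 lower calls. The other lower call was *Tgfbr1* in B cells, which could not be evaluated here. Among the kept lower calls, *Tgfbr2*, *Ltbp1* and *Tgfb2* in macrophages rested on values of 0, which stood at 3 UMIs. *Tgfbr2* was at 0 in both libraries, and *Ltbp1* and *Tgfb2* in AngII+HS. A pair at 0 in both libraries took a ratio set by total UMIs alone, so its direction does not describe the gene. In fibroblasts 1 member was higher and 1 lower, against 6.22% and 5.98% of 13589 genes. In VSMCs 1 was higher and 1 lower, against 4.55% and 8.17% of 13712 genes. In VECs 1 was higher and none lower, against 6.2% and 4.39% of 10839 genes. In macrophages none was higher and 3 lower, against 10% and 13.7% of 11542 genes. In neutrophils 1 was higher and none lower, against 23.6% and 10.2% of 7139 genes, and in B cells none was higher and 1 lower, against 7.69% and 2.04% of 6284 genes. No member was called in lymphatic endothelial cells (LECs; 4.99% and 3.01% of 5814 genes higher and lower), in T cells (7.3% and 2.01% of 7016) or in neural cells (4.18% and 1.71% of 5784). The median log2 ratio of the 10 members was −0.03 in fibroblasts, −0.24 in VSMCs and 0.12 in VECs, beside −0.13, −0.04 and 0.05 over all genes tested there. It was −0.06 in macrophages and 0.39 in neutrophils, beside −0.07 and 0.21, and −0.56 in B cells over the 6 members with enough UMIs, beside 0.01. In fibroblasts, VSMCs and VECs the larger differences thus lay in single genes.

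**Figure D2:**
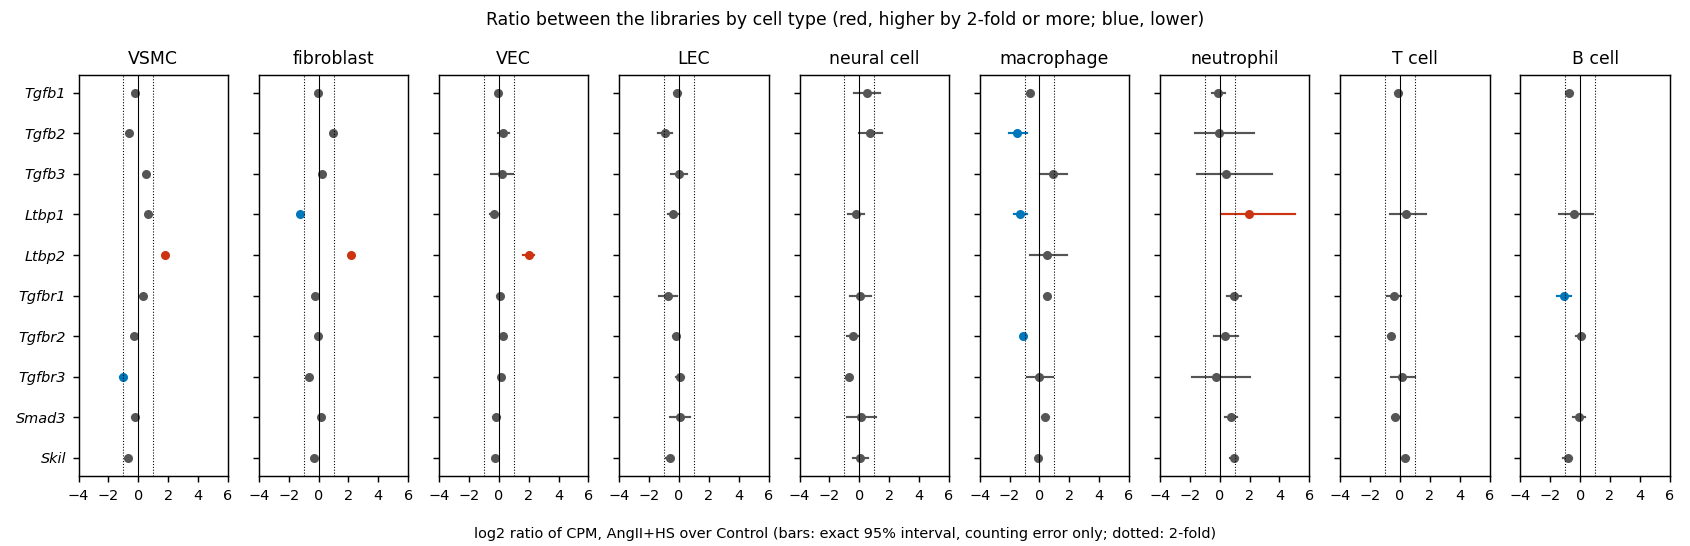
Log2 ratio of CPM, AngII+HS over Control (x axis), of each gene in the 9 cell types, with exact 95% intervals for counting error. Dotted lines mark 2-fold, and pairs at 0 UMIs in a library are not drawn. *Ltbp2* lies past 2-fold in VSMCs, fibroblasts and VECs, and *Ltbp1* lies on opposite sides of 0 in fibroblasts and VSMCs.

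*Tgfb1*, the ligand known mostly from leukocytes and endothelium, was lower in VSMCs, fibroblasts and neural cells than in any leukocyte or endothelial type compared. In Control it stood at 511 CPM in B cells, 349 in macrophages, 332 in LECs, 259 in T cells and 215 in VECs. Neutrophils held 169 CPM, and VSMCs, fibroblasts and neural cells 66.7, 58.6 and 34.0. From macrophages down to neutrophils, the interval of each cell type overlapped that of the next one in this order, although macrophages did not overlap T cells, VECs or neutrophils, and LECs did not overlap VECs or neutrophils. B cells stood above macrophages, neutrophils above VSMCs and VSMCs above fibroblasts with no overlap.

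In AngII+HS, *Tgfb1* stood at 308 CPM in B cells and 305 in LECs, which overlapped, and at 242 in T cells, 224 in macrophages and 206 in VECs. Dendritic cells (DCs), of which Control had too few, held 192 CPM. Plasma cells, also outside the 9 types compared, held 34.1 CPM, below VSMCs (56.8) and fibroblasts (56.5) with no overlap. No cell type passed 2-fold for *Tgfb1*. The ratio in macrophages was −0.64 (interval −0.75 to −0.53), and that in B cells −0.73 (−0.97 to −0.48). The larger macrophage share of *Tgfb1* UMIs in AngII+HS thus stood beside a lower CPM and 4512 macrophages against 488.

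*Tgfb2*, the ligand without the Arg-Gly-Asp motif, was a transcript of mural, fibroblast, lymphatic and neural cells. In Control its level was 345 CPM in VSMCs, 164 in fibroblasts, 136 in LECs, 42.5 in neural cells and 22.6 in VECs. In AngII+HS it was 219 CPM in VSMCs, 328 in fibroblasts, 71.5 in LECs, 70.2 in neural cells and 28.0 in VECs. The order of VSMCs and fibroblasts was thus turned between the libraries, and in each library their intervals did not overlap. The mix of fibroblast clusters bears on this order, since the *Comp*-led cluster described below was 14.2% of Control and 44.8% of AngII+HS fibroblasts. With the clusters of each type weighted by their Control UMIs, AngII+HS fibroblasts stood at 217 CPM and VSMCs at 226, so the turn was not seen. No interval was computed for these close values, so no order is read from them. This weighting left out the *Prg4*-led fibroblast cluster described below. Fibroblasts overlapped LECs in Control, and LECs overlapped neural cells in AngII+HS. The ratio in LECs was −0.93 (interval −1.38 to −0.50).

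The ratio of *Tgfb2* in fibroblasts was 0.997 (interval 0.92 to 1.07), just under the 2-fold limit, and in VSMCs −0.65 (−0.73 to −0.57). With TMM scaling the ratio in fibroblasts was 1.13 and with no doublets removed 0.77, so the side of the limit it fell on depended on the setting. At a matched depth of 1000 UMIs per cell, 11.7% of Control and 20.02% of AngII+HS fibroblasts had a *Tgfb2* UMI. T cells, which are not known to make this ligand, gave 0.775% and 0.471%, and these shares serve as the background from free RNA (median depth 4382.5 and 2308 UMIs, against 3195 and 5121 in fibroblasts). Without thinning the shares were 24.3% and 48.1% in fibroblasts and 3.85% and 1.45% in T cells. In macrophages *Tgfb2* was called lower (14.9 and 5.37 CPM, 33 and 107 UMIs), and with no doublets removed the ratio was −0.08. The interval overlapped those of B cells, T cells and neutrophils in Control, and in AngII+HS those of B cells and T cells but not of neutrophils (10.8 CPM). B cells held 11.96 and 6.87 CPM and T cells 8.42 and 5.84, so the macrophage level was above theirs in Control and below it in AngII+HS.

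Among the named cell types *Tgfb3* was highest in VSMCs, at 76.7 CPM in Control and 111 in AngII+HS (ratio 0.53, interval 0.41 to 0.64). Fibroblasts held 61.6 and 71.7 CPM and LECs 61.5 and 60.9, and both cell types overlapped in each library. Neural cells held 23.4 and 19.4 CPM, VECs 6.23 and 7.27, and leukocytes 5.05 to 13.7. A cluster that stayed unnamed, since its markers scored best for VSMCs while the pericyte marker *Notch3* stood among its leading genes, was led by *Pln* and *Notch3* (176 and 219 cells). It held 198 and 155 CPM of *Tgfb3*, above VSMCs in both libraries.

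**Figure D3:**
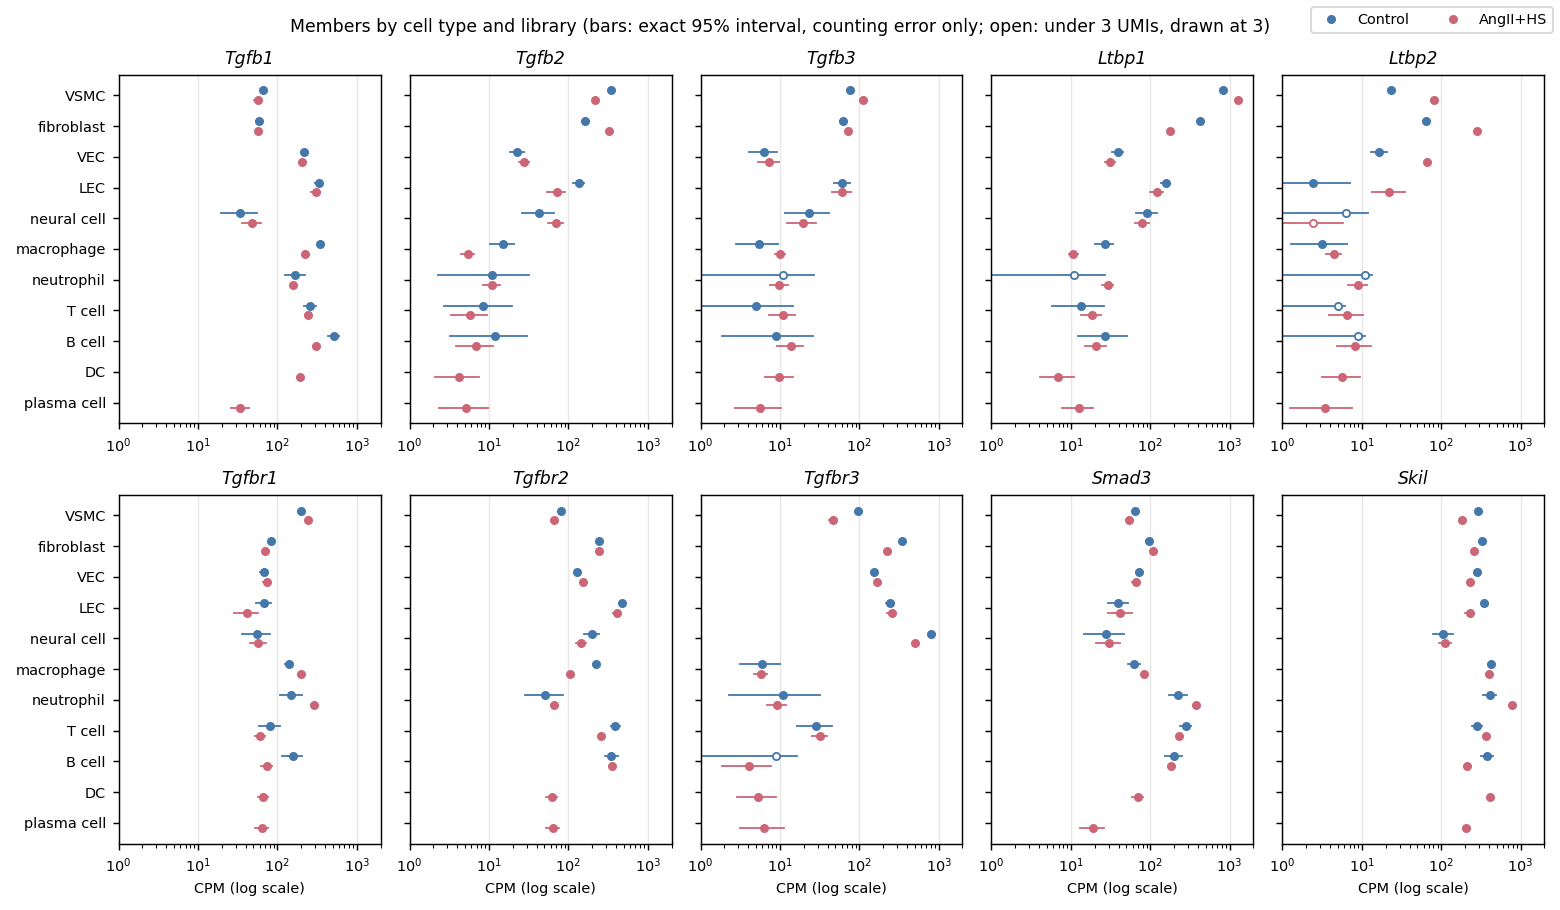
Level of each gene in CPM (x axis, log scale) in 11 cell types, Control in blue and AngII+HS in red, with exact 95% intervals for counting error. Open points had under 3 UMIs and are drawn at the level of 3. *Tgfb1* is highest in B cells in both libraries (511 and 308 CPM), and *Ltbp1* is highest in VSMCs (829 and 1271 CPM).

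*Ltbp1*, the gene that anchors latent TGF-beta in the matrix, differed in opposite directions in the 2 named cell types that express it most. In the unnamed *Pln*- and *Notch3*-led cluster, *Ltbp1* stood above its fibroblast level in Control and close to it in AngII+HS. No order is read in AngII+HS, and the values of this cluster are given below. In VSMCs *Ltbp1* stood at 829 CPM in Control (44925 UMIs) and 1271 in AngII+HS (8319 UMIs), a ratio of 0.62 (interval 0.58 to 0.65). In fibroblasts it stood at 429 CPM (4234 UMIs) and 179 (5044 UMIs), a ratio of −1.26 (−1.32 to −1.20) that was called lower. The intervals of the 2 cell types did not overlap, and no test of the difference was possible. Of all *Ltbp1* UMIs, VSMCs held 89.1% in Control and 57.4% in AngII+HS, and fibroblasts 8.40% and 34.8%.

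The share of cells with an *Ltbp1* UMI at matched depth went the same way, with 53.3% of Control and 69.0% of AngII+HS VSMCs and 28.4% and 14.8% of fibroblasts. T cells, as background, gave 2.33% and 2.17%. Unthinned, the shares were 97.4% and 92.3% in VSMCs, 52.6% and 44.1% in fibroblasts and 6.15% and 4.27% in T cells, at a median of 9704.5 and 6858 UMIs in VSMCs. Thus the unthinned share of VSMCs was lower in AngII+HS while the level was higher, and no order is read from it.

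LECs held 156 and 121 CPM of *Ltbp1*, neural cells 91.3 and 78.3, and VECs 38.8 and 31.2. Leukocytes held 6.85 to 29.1 CPM. *Ltbp1* was called lower in macrophages (26.7 and 10.7 CPM) and higher in neutrophils (7.36 and 29.1 CPM, from 2 UMIs in Control). With no doublets removed the ratio in macrophages was −0.39, and with free RNA subtracted that in neutrophils was −0.0215. The subtraction left 0 in Control neutrophils, which stood at 3 UMIs. In Control the intervals of the leukocytes overlapped, whereas in AngII+HS neutrophils stood above T cells (18.2 CPM) and macrophages, and B cells (20.6) and T cells above macrophages, with no overlap. In the unnamed *Pln*- and *Notch3*-led cluster, *Ltbp1* stood at 522 and 183 CPM (ratio −1.51, interval −1.74 to −1.29).

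Within the VSMCs, all 3 clusters had a higher *Ltbp1* level in AngII+HS. The cluster led by *Mylk4* and *Tcap* (3428 and 457 cells) held 808 and 1207 CPM, the one led by *Erbb4* and *Epha7* (1195 and 356 cells) 968 and 1666, and the one led by *Des* and *P2rx1* (819 and 102 cells) 756 and 1172. Their ratios were 0.58, 0.78 and 0.63.

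Within the fibroblasts, the 3 clusters with at least 40 cells in both libraries had a lower *Ltbp1* level in AngII+HS, by unequal amounts. The cluster led by *Dio2* and *F3*, which held most Control fibroblasts (1513 and 1605 cells), stood at 389 and 286 CPM (ratio −0.44). The largest AngII+HS cluster of fibroblasts was led by *Comp* and *Sfrp1* (373 and 2110 cells) and stood at 513 and 115 CPM (−2.16). In the third, led by *Clec3b* and *Scara5* (735 and 833 cells), it stood at 440 and 223 CPM (−0.98).

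With these 3 clusters weighted in both libraries by their Control UMIs, the ratio of *Ltbp1* in fibroblasts was −0.88, which is not past 2-fold. It was also just under 2-fold (−0.996) with equal weight per cell. The ratio over all fibroblasts therefore held both a lower level within clusters and a different mix of clusters. Weighted the same way, *Tgfb2* in fibroblasts had a ratio of 0.40, with 184 and 186 CPM in the *Dio2*-led cluster, 236 and 462 in the *Comp*-led cluster and 105 and 139 in the *Clec3b*-led cluster.

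**Figure D4:**
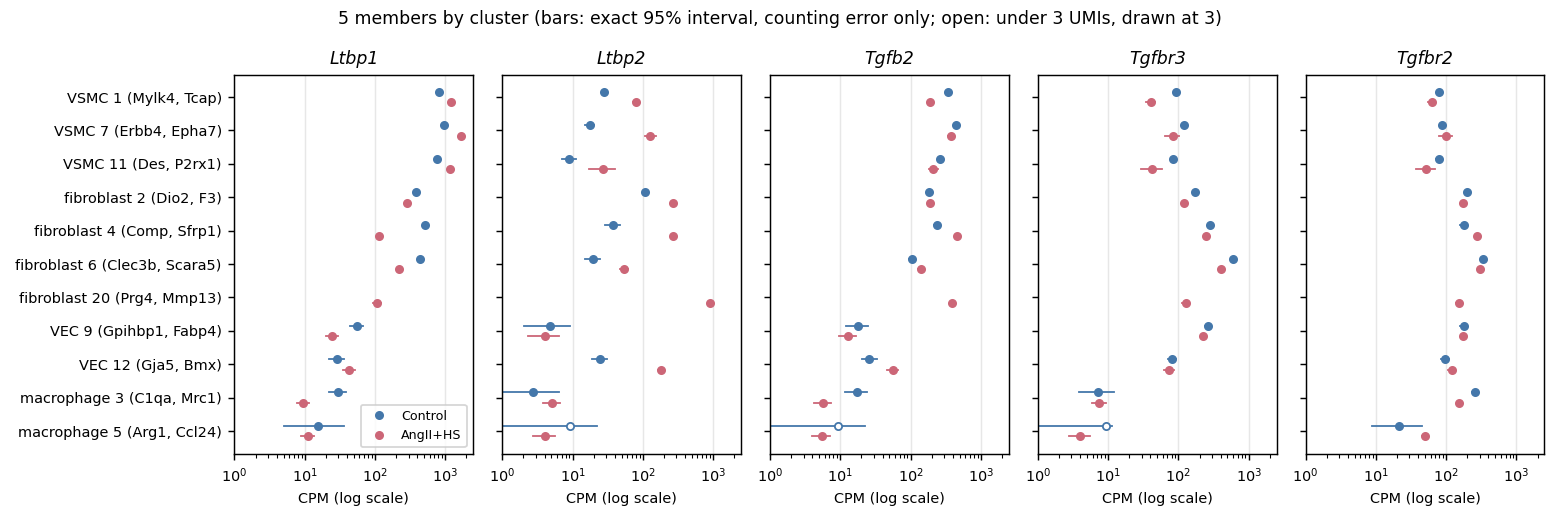
Level of 5 genes in CPM (x axis, log scale) by cluster, Control in blue and AngII+HS in red, with exact 95% intervals for counting error. Clusters with under 40 cells in a library are not drawn for it, and open points had under 3 UMIs. *Ltbp2* in the *Gja5*-led VEC cluster stands at 24.3 and 180 CPM, and in the *Gpihbp1*-led VEC cluster at 4.71 and 4.01.

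*Ltbp2*, whose protein does not bind latent TGF-beta, was called higher in fibroblasts, VSMCs and VECs. In fibroblasts it stood at 64.0 CPM in Control (632 UMIs) and 286 in AngII+HS (8039 UMIs), a ratio of 2.16 (interval 2.04 to 2.28). In VSMCs it stood at 23.3 CPM (1262 UMIs) and 80.8 (529 UMIs), a ratio of 1.80 (1.65 to 1.94). VECs had 16.6 CPM (72 UMIs) in Control and 66.4 in AngII+HS (411 UMIs), a ratio of 1.998 (1.63 to 2.38). Fibroblasts led in both libraries, then VSMCs, then VECs, and no neighbours in that order overlapped. At Control weights of the clusters, AngII+HS VECs stood at 111 CPM and VSMCs at 81.0, so the order of these types there depended on the mix of VEC clusters given below.

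Fibroblasts held 31.7% of the *Ltbp2* UMIs in Control and 87.3% in AngII+HS, while VSMCs held 63.3% and 5.75%. At matched depth, 4.07% and 15.8% of fibroblasts had an *Ltbp2* UMI, against none of 129 Control T cells (3 cells, the limit set here for a count of 0, would be 2.33%) and 0.753% of AngII+HS T cells. Leukocytes held at most 3.16 CPM in Control and 8.85 in AngII+HS. LECs held 2.43 and 22.3 CPM, from 22 UMIs in all, which is too few for a call. The unnamed *Pln*- and *Notch3*-led cluster held 9.53 and 4.48 CPM, from 14 and 5 UMIs.

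In fibroblasts *Ltbp2* was higher in AngII+HS in all 3 clusters with at least 40 cells in both libraries. It stood at 109 and 269 CPM in the *Dio2*-led cluster, 37.4 and 267 in the *Comp*-led cluster and 19.4 and 53.9 in the *Clec3b*-led cluster. The ratios were 1.31, 2.84 and 1.48, and at Control weights the ratio over the 3 was 1.58. A fibroblast cluster led by *Prg4* and *Mmp13* had 163 cells in AngII+HS and 1 in Control. It held 903 CPM of *Ltbp2* (interval 864 to 943), 386 of *Tgfb2* and 107 of *Ltbp1*, and 92.6% of its cells had an *Ltbp2* UMI at a median of 13820 UMIs. Of the 8039 *Ltbp2* UMIs of AngII+HS fibroblasts, the *Dio2*-, *Comp*- and *Clec3b*-led clusters held 2159, 3614 and 232. The rest lay in the *Prg4*-led cluster, which was 3.46% of these cells and is part of the ratio of 2.16.

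In VSMCs *Ltbp2* was higher in each of the 3 clusters, at 28.1 and 80.9 CPM in the *Mylk4*-led, 17.6 and 127 in the *Erbb4*-led and 9.05 and 26.9 in the *Des*-led cluster. The ratio depended on the doublet removal, being 2.36 with no doublets removed and 1.04 with the number removed doubled. The summed level of the 5 fibroblast markers (*Dcn*, *Lum*, *Col1a1*, *Col3a1*, *Pdgfra*) in VSMCs was 1574 CPM in Control and 3793 in AngII+HS, with all 5 detected. In T cells the same sum was 97.7 and 662 CPM, and in fibroblasts 17213 and 37432. The part of fibroblast RNA in the VSMC value was not tested.

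In VECs the higher *Ltbp2* level lay in 1 of 2 clusters. The cluster that was led by *Gja5* and *Bmx* and scored highest for arterial markers (496 and 396 cells) held 24.3 CPM in Control and 180 in AngII+HS, a ratio of 2.89 (interval 2.50 to 3.29). The one that was led by *Gpihbp1* and *Fabp4* and scored highest for capillary markers (342 and 807 cells) held 4.71 and 4.01 CPM (−0.23, interval −1.54 to 1.2). At matched depth 0.842% of Control and 15.0% of AngII+HS cells of the *Gja5*-led cluster had an *Ltbp2* UMI, against 0.625% and 0.404% in the *Gpihbp1*-led cluster. The former was the larger VEC cluster in Control and the latter in AngII+HS, and at Control weights the ratio over VECs was 2.74.

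In the *Gja5*-led cluster of AngII+HS, 172 cells had an *Ltbp2* UMI and 224 had none. The 4 VEC markers summed to 4504 CPM in the former and 5857 in the latter, the fibroblast markers to 901 and 562, and the VSMC markers to 1385 and 999. The cells with a UMI were deeper (median 6186.5 against 3818 UMIs). In Control, 25 cells of this cluster had an *Ltbp2* UMI and 471 had none, at a median of 7408 and 4263 UMIs. There the VEC markers summed to 4595 and 5655 CPM, the fibroblast markers to 655 and 167, and the VSMC markers to 834 and 746. The part of fibroblast RNA in the *Ltbp2* values of this cluster was not tested. Over the whole cluster the fibroblast markers summed to 211 CPM in Control and 754 in AngII+HS, beside 97.7 and 662 CPM in T cells and 149 and 718 in B cells, where *Ltbp2* stood at most at 8.25 CPM. *Tgfb2* was also higher in this cluster (25.8 and 55.6 CPM, ratio 1.10).

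The start of the *Ltbp1* and *Ltbp2* genes is shown because these 2 related genes differed in opposite directions in fibroblasts. The RefSeq table of promoters (GRCm38.p6) holds 2 start sites for *Ltbp1* and 1 for *Ltbp2*, and the UMI counts do not separate transcripts by start. The lines give the 250 bases before each start, 5′ to 3′ on the strand of the gene, with CAGACA or its reverse complement TGTCTG, a core of SMAD binding elements, in capitals.
*Ltbp1* start 1 (chr17:75005279-75005528, plus strand): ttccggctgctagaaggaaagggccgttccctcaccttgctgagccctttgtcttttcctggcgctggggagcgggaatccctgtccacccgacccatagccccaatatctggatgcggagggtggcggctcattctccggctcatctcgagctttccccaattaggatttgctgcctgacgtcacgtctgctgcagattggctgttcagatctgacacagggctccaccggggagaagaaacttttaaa
*Ltbp1* start 2 (chr17:75178531-75178780, plus strand): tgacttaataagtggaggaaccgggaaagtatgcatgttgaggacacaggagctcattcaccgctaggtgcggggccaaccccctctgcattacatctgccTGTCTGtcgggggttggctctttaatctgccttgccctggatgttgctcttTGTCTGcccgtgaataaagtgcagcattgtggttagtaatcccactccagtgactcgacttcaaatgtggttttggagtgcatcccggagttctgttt
*Ltbp2* start (chr12:84876492-84876741, minus strand): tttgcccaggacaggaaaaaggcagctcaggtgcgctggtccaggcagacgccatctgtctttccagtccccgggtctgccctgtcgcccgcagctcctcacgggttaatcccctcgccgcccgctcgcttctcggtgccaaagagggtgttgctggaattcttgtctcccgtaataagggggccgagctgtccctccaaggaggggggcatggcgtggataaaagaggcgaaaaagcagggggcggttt
The first *Ltbp1* start held no CAGACA on either strand, the second held 2, and the *Ltbp2* start held none. Of 32536 promoter windows of this length, 16.99% held CAGACA and 0.169% the palindrome GTCTAGAC, which was in none of these 3. A match describes letters only, and no binding was measured. Of the other members, *Tgfb1*, *Tgfb2*, *Tgfbr1*, *Tgfbr2* and *Smad3* had an entry in that set of promoters and *Tgfb3*, *Tgfbr3* and *Skil* had none.

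The receptor transcripts came from other cells in the 2 libraries as well. VSMCs held 85.3% of the *Tgfbr1* UMIs in Control and 14.8% in AngII+HS, where macrophages held 36.8%, fibroblasts 18.2% and neutrophils 17.0%. Fibroblasts held 26.8% and 51.8% of the *Tgfbr2* UMIs and 33.7% and 70.5% of the *Tgfbr3* UMIs, and VSMCs held 48.6% and 3.31% of the former and 51.2% and 3.43% of the latter. Receptor levels per cell type ordered the cells differently from these shares.

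*Tgfbr2*, the receptor that binds the ligand first, was highest in LECs (473 CPM in Control, 411 in AngII+HS), T cells (391 and 255) and B cells (350 and 358). Fibroblasts held 244 and 242 CPM, with a ratio of −0.01 (interval −0.08 to 0.05). VECs held 130 and 155 CPM and VSMCs 80.5 and 66.3. LECs overlapped the next type in both libraries, and T cells overlapped fibroblasts in AngII+HS. VSMCs, the largest source in Control, thus had a lower *Tgfbr2* level than fibroblasts, VECs, LECs, T cells and B cells in both libraries.

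Macrophages held 222 CPM of *Tgfbr2* in Control (492 UMIs) and 105 in AngII+HS (2097 UMIs), a ratio of −1.08 (interval −1.22 to −0.93) that was called lower. The value was just under 2-fold with the number of doublets removed doubled (−0.97) and with TMM scaling (−0.97). The 2 large macrophage clusters differed. The cluster led by *C1qa* and *Mrc1* (439 and 2323 cells) held 260 and 152 CPM, a ratio of −0.78. In the *Arg1*-led cluster (40 and 2075 cells) there were 21.7 CPM from 7 UMIs and 49.5 CPM. At Control weights the ratio over these clusters was −0.72, so the call over all macrophages also rested on the mix of clusters.

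*Tgfbr1*, the kinase that phosphorylates SMAD3, stood at 199 and 241 CPM in VSMCs, a ratio of 0.28 (interval 0.20 to 0.36). Neutrophils held 151 CPM in Control, from 41 UMIs, and 292 in AngII+HS (0.95, interval 0.50 to 1.43). Macrophages held 141 and 197 CPM. In Control the intervals of VSMCs, B cells, neutrophils and macrophages overlapped from one to the next, and in AngII+HS those of neutrophils, VSMCs and macrophages did not. In B cells *Tgfbr1* was called lower, with 155 CPM (52 UMIs) and 73.8 CPM (161 UMIs), a ratio of −1.08 (−1.53 to −0.60). This ratio was −0.70 with no doublets removed.

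By cluster, *Tgfbr1* stood at 152 and 288 CPM in the *C1qa*-led macrophages and at 92.8 and 72.5 in the *Arg1*-led ones. In the *Erbb4*-led VSMC cluster it stood at 212 and 426 CPM (ratio 1.004). The other 2 VSMC clusters held 197 and 207 CPM and 188 and 217 CPM.

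*Tgfbr3*, the betaglycan co-receptor, was a transcript of neural cells (809 and 503 CPM), fibroblasts (347 and 225), LECs (243 and 255) and VECs (154 and 169). Leukocytes held 2.99 to 32.1 CPM, the highest in T cells. The order of the other types was neural cells, fibroblasts, LECs, VECs and VSMCs in Control with no overlap, while LECs and fibroblasts overlapped in AngII+HS. In VSMCs it was called lower, with 96.1 CPM in Control (5211 UMIs) and 47.1 in AngII+HS (308 UMIs), a ratio of −1.03 (interval −1.20 to −0.86). This call lies at the limit, since the ratio was −0.997 with the number of doublets removed doubled, −0.99 with TMM scaling or at Control weights of the clusters, and −0.77 with equal weight per cell.

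The *Clec3b*-led fibroblast cluster had the highest *Tgfbr3* level of the fibroblast clusters, at 605 and 405 CPM. The *Dio2*-led cluster held 171 and 122 CPM, and the *Comp*-led cluster 286 and 246. In VECs, *Tgfbr3* stood at 266 and 221 CPM in the *Gpihbp1*-led cluster and at 81.0 and 73.8 in the *Gja5*-led cluster.

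*Smad3* and *Skil* were found in all cell types. *Smad3* was highest in T cells (281 and 227 CPM), neutrophils (225 and 374) and B cells (197 and 185), followed by fibroblasts (95.6 and 109). Its ratio was 0.74 in neutrophils (interval 0.37 to 1.13) and passed 2-fold in no cell type. *Skil* stood at 422 and 397 CPM in macrophages and at 412 and 792 in neutrophils (0.94, interval 0.67 to 1.23). In Control the order of these 2 cell types was within counting error.

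In VSMCs *Skil* stood at 294 and 182 CPM (ratio −0.70), in fibroblasts at 327 and 262 (−0.32) and in B cells at 377 and 212 (−0.83). It was past 2-fold in the *Des*-led VSMC cluster only among the 3 VSMC clusters (312 and 152 CPM, −1.04). DCs held 410 CPM of *Skil* in AngII+HS.

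The 48 other genes of the pathway list were compared in the same way. In fibroblasts all 48 had enough UMIs, and 12 were called higher and 2 lower, against 6.22% and 5.98% of all genes there. Among 14 target genes, 7 were higher: the collagens *Col1a1* (2909 and 14098 CPM), *Col1a2* and *Col3a1*, the matrix genes *Postn* (89.6 and 375), *Cthrc1* (5.47 and 98.2) and *Tnc* (18.3 and 208), and the protease inhibitor *Timp1* (231 and 1582). *Tgfbi*, whose name comes from its induction by TGF-beta, was lower (687 and 155 CPM, ratio −2.15). Other target genes were within 2-fold, such as *Ccn2* (624 and 661 CPM), a matricellular growth factor. The median log2 ratio in fibroblasts was 1.22 for the target genes and 0.10 for all 48 list genes, beside −0.13 over all genes tested there. The list was chosen with earlier results of these data known, so these medians are descriptions only. *Col1a1* and *Col3a1* also served to name the fibroblasts. *Postn*, *Cthrc1* and *Tnc* were markers of a fibroblast subtype, and none of these marker genes was barred from the clustering. Each of the 7 ratios was smaller at Control weights of the clusters, such as 1.74 in place of 2.28 for *Col1a1*.

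Of the 18 activation and latency genes in fibroblasts, 5 were higher and 1 lower. Thrombospondin 1 (*Thbs1*), which can release latent TGF-beta, stood at 165 and 524 CPM, and the integrin chain *Itgb8* at 13.8 and 32.1. The gelatinases *Mmp2* and *Mmp9* stood at 290 and 689 CPM and at 0.304 and 9.85. *Mmp9* stood at 1045 and 1541 CPM in neutrophils and at 0 and 13.5 in T cells, and the sum of 4 neutrophil markers in fibroblasts was 8.61 and 182 CPM. *Nrros* (1.42 and 3.52 CPM) was higher, from 14 and 99 UMIs, and *Itgb3* (17.6 and 8.54) was lower. The other LTBP genes did not pass 2-fold, with *Ltbp3* at 118 and 190 CPM and *Ltbp4* at 633 and 457. None of the 8 inhibitors, 6 transducers or 2 co-receptors was past 2-fold in fibroblasts.

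In VSMCs 45 genes of the list had enough UMIs, and 11 were higher and none lower, against 4.55% and 8.17% of all genes there. These were *Fn1* (3910 and 8656 CPM), *Thbs1* (72.8 and 607), *Mmp2*, *Mmp9*, *Nrros*, *Tgfbi*, *Col1a1* (539 and 1486), *Col3a1*, *Postn* (657 and 1698), *Timp1* and the inhibitor decorin (*Dcn*, 17.9 and 108). *Dcn*, *Col1a1* and *Col3a1* are among the fibroblast markers whose sum is given above. *Mmp9*, *Nrros* and *Tgfbi* were low in VSMCs. At Control weights of the clusters they stood at 0.314 and 6.93, 0.590 and 3.81, and 1.55 and 7.71 CPM. In macrophages *Nrros* and *Tgfbi* then stood at 195 and 250 and at 384 and 572 CPM. *Mmp9* in neutrophils and T cells is given above, and the part of free RNA in these VSMC values was not tested. *Ltbp4* stood at 401 and 217 CPM and *Ltbp3* at 105 and 201, and neither passed 2-fold.

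**Figure D5:**
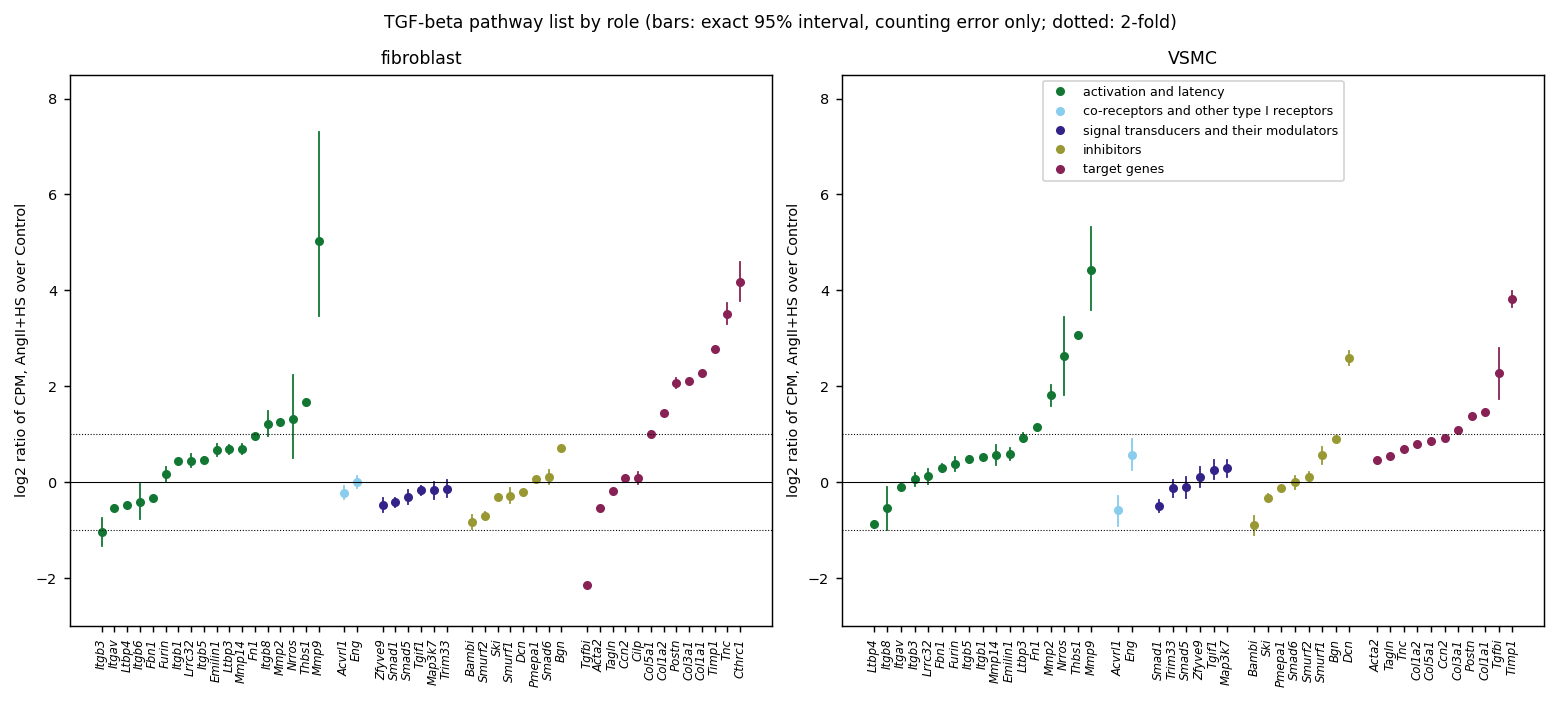
Log2 ratio of CPM, AngII+HS over Control (y axis), of the other pathway genes in fibroblasts and VSMCs (1 gene is not drawn), ordered within their roles, with exact 95% intervals for counting error and dotted lines at 2-fold. Past 2-fold, 12 genes are higher and 2 lower in fibroblasts, and 11 are higher and none lower in VSMCs.

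In VECs 46 genes had enough UMIs, with 12 higher and 1 lower, against 6.2% and 4.39% of all genes. The integrin chain *Itgav*, which pairs with several beta chains to grip latent TGF-beta, stood at 130 and 296 CPM, *Thbs1* at 275 and 948 and *Mmp14* at 11.8 and 85.8. *Acvrl1*, the endothelial type I receptor for BMP9, was lower (193 and 85.3 CPM, ratio −1.18), while its partner endoglin (*Eng*) stood at 428 and 700 CPM. In macrophages 45 genes had enough UMIs, with 13 higher and 1 lower, against 10% and 13.7%. *Thbs1* stood there at 309 and 3769 CPM, *Fn1* at 368 and 1884, *Mmp14* at 12.6 and 127 and *Mmp9*, the lower one, at 110 and 23.3. In both VECs and macrophages the higher genes included *Col1a1*, *Col1a2*, *Col3a1* and *Timp1*, which were also higher in T cells. The part of free RNA in the VEC and macrophage values was not tested gene by gene.

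These values span different mixes of clusters, since the *Arg1*-led cluster was 8.20% of Control and 46.0% of AngII+HS macrophages, and the *Gpihbp1*-led cluster 40.8% and 67.1% of VECs. At Control weights 11 of the 13 higher genes of macrophages and 11 of the 12 of VECs stayed past 2-fold, as did the lower gene of each. In macrophages *Thbs1* then stood at 319 and 1861 CPM and *Fn1* at 378 and 855, so both ratios were smaller (2.54 and 1.18 in place of 3.61 and 2.36). *Acvrl1* in VECs had a ratio of −1.004 and *Itgav* 1.06, both at the limit. *Fn1*, *Ltbp3* and *Dcn* in VECs passed 2-fold with these weights (1.06, 1.16 and 1.09) and not without them. In fibroblasts 9 of the 12 higher genes stayed past 2-fold, and *Col1a2* (0.99), *Itgb8* (0.71) and *Mmp2* (0.59) did not. In VSMCs all 11 stayed.

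Some collagen genes of the list passed 2-fold in cell types that are not known to make them. *Col1a1* and *Col3a1* were higher in each of T cells, B cells and neutrophils, where *Timp1*, not a collagen, was higher too. *Col3a1*, for example, stood at 40.4 and 229.9 CPM in T cells. At Control weights of the clusters it stood at 53.3 and 195 CPM in VECs and at 43.0 and 159 in macrophages. The fibroblast marker sum in neutrophils was 162 CPM in Control, with *Lum* at 0, and 1120 in AngII+HS with all 5 detected. In LECs 7 of 37 list genes were higher and 2 lower, against 4.99% and 3.01% of all genes there. In neural cells 10 of 38 were higher and none lower, against 4.18% and 1.71%. T cells had 11 of 31 higher and none lower, against 7.3% and 2.01%, and B cells 8 of 28 and none, against 7.69% and 2.04%. In neutrophils 13 of 37 were higher and 1 lower, where 23.6% of all genes were higher and 10.2% lower. The part of free RNA in these counts was not tested gene by gene, and subtracting it is among the alternatives given below.

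Over the 20 profiles of a cell type in a library with at least 90 cells, the genes whose pattern was most like each member were found among 8036 genes, by Pearson correlation of log2(CPM + 5). Profiles of a library share its depth and free RNA, so these are descriptions. *Cacna2d1* was most like *Tgfb2* (r = 0.97), *Ltbp1* (0.96) and *Tgfb3* (0.93), and *Tgfb2* was itself the gene ranked 3 for *Ltbp1* (0.94). *Hdx*, *Myo6* and *Il17rd* were most like *Tgfbr3* (0.96, 0.95 and 0.95). *Tmem45a* and *Twist1* were most like *Ltbp2* (0.90 and 0.89), *Pim1* most like *Skil* (0.92) and *Rnf115* most like *Tgfb1* (0.90). The closest genes to *Tgfbr1*, *Tgfbr2* and *Smad3* were *Acsl1* (0.84), *Usp24* (0.87) and *Sidt2* (0.85).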

How the data were processed

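Droplet 3′ scRNA-seq was made from Control and AngII+HS aortas, with 1 library per condition. The authors counted UMIs with Cell Ranger and deposited raw UMI counts per gene and barcode. The methods name version 7.0 and GRCm39, the file header gives 8.0.1, and the labels name mm10. Of the gene identifiers, 98.5% were found in GENCODE M39. Introns are counted by default in these versions, and near-identical or overlapping genes were not separated here.

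The 10 members, the pathway list and the markers were chosen with earlier results of these data known. The named genes were the members, list genes past 2-fold in a cell type, the markers and the 3 genes most like each member (of those, the closest are named), and *Ltbp4* was named outside this rule after its values were seen. The values of 1 list gene are not reported here, though the counts include it. Cells needed at least 500 UMIs, 200 genes and under 20% mitochondrial UMIs. Doublets were scored with Scrublet (scanpy 1.11.5), and the highest scores were removed at 0.8% per 1000 cells, that is 9.03% of Control and 19.6% of AngII+HS cells, in place of DoubletFinder. Seurat 5.3.0 integrated the libraries by CCA (2000 variable genes without 50 member and list genes, 30 components) and gave 24 clusters at resolution 0.8. Clusters were named from fixed markers. *Rgs5* was dropped as a pericyte marker after clusters were seen. Counts of the cells of a type were added up within each library. Intervals were exact (Poisson, binomial or conditional binomial, 95%), a count of 0 stood at 3 UMIs, and the ratio script was tested on simulated data. Alternatives changed the doublets, cell filter, integration, resolution, clustering genes, scaling (TMM in edgeR 4.0.16), weight per cell, free RNA and minimum UMIs. Weighting the clusters of a type (those with at least 40 cells in both libraries) by their share of the Control UMIs was added after seeing the data. Median depth was 7274 and 3065.5 UMIs per cell.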

Additional observations from a re-analysis of the deposited data

Results flagged for a closer look

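The ratio of *Ltbp1* in AngII+HS over Control lay on opposite sides of 0 in the 2 cell types that held most of its UMIs. It was −1.26 in fibroblasts and 0.62 in VSMCs on the log2 scale, a difference of −1.87 that was not tested, since there was 1 library per condition. *Tgfbr1* had a ratio of −1.08 in B cells and 0.95 in neutrophils, a difference of −2.03 that was not tested either. The Control library held 99 cells of each of these types, with 52 *Tgfbr1* UMIs in B cells and 41 in neutrophils.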

How the results depend on the processing

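Of 129 values of the 10 called pairs under 13 alternatives, 119 were past 2-fold in the same direction. The alternatives that changed only the minimum UMIs left the ratios of these pairs as they were, so their values repeat the main ones. The 119 also include *Tgfbr2*, *Ltbp1* and *Tgfb2* in macrophages with free RNA subtracted, which rested on values of 0 set to 3 UMIs. *Ltbp2* stayed past 2-fold under all 13 in fibroblasts (1.71 to 2.32), VSMCs (1.04 to 2.36) and VECs (1.85 to 2.56). *Ltbp1* in fibroblasts ranged from −1.37 to −0.996, *Tgfbr2* in macrophages from −3.17 to −0.97, *Tgfbr3* in VSMCs from −1.15 to −0.77 and *Tgfbr1* in B cells from −1.20 to −0.70. The −3.17 came with free RNA subtracted, where *Tgfbr2* was at 0 in both libraries. That value is set by total UMIs alone and does not describe *Tgfbr2*. Outside these counts and ranges, weighting clusters by their Control UMIs, chosen after seeing the data, ended the calls of *Ltbp1* in fibroblasts (−0.88), *Tgfbr2* in macrophages (−0.72) and *Tgfbr3* in VSMCs (−0.99). It gave 1.58, 1.80 and 2.74 for *Ltbp2* in fibroblasts, VSMCs and VECs, and put *Tgfb3* in macrophages past 2-fold (1.22). Macrophages had 12 *Tgfb3* UMIs in Control, and their unweighted 5.42 and 9.99 CPM stood beside 5.05 and 10.9 in T cells and 8.97 and 13.7 in B cells. With no doublets removed, *Ltbp1* and *Tgfb2* in macrophages stood at −0.39 and −0.08. *Ltbp1* in neutrophils turned to −0.0215 with free RNA subtracted, which left 0 in Control, set to 3 UMIs. That subtraction took the lower of the B cell and T cell levels, which also removes RNA those cells make. B and T cells were left out of this setting, which gave 14 pairs higher and 24 lower in place of 4 and 6. Pairs at 0 in both libraries after subtraction, such as *Tgfb1* in VSMCs, took a ratio set by total UMIs alone. These counts thus hold directions that do not describe the gene, and the same rule applied to the pathway list. For that list this setting gave 79 lower calls in place of 7, against 22 with no doublets removed and 21 with no minimum beyond 3 UMIs. It kept 54 of the 97 higher calls, but 8 of the 97 were in B cells and 11 in T cells. Those calls could not be evaluated in this setting and were not counted as kept. TMM factors of AngII+HS over Control were 0.91 in fibroblasts, 0.93 in macrophages and 1.14 in neutrophils. The type with the highest share of cells with a UMI was the same in 11 of 20 cases after thinning to 1000 UMIs. Direction between conditions rests on 1 library each, and depth limits the rarer types, with 99 neutrophils and 99 B cells in Control.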
